A study of Mus musculus with 10 samples.

Results

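PRC1.6 is a Polycomb repressor complex that keeps germline genes silent in pluripotent cells, and the genes of 9 of its subunits were followed here by symbol through a deposited table of 36066 genes. These were Pcgf6, L3mbtl2, Mga, Max, E2f6, Ring1, Rnf2, Rybp and Cbx3. Each of the 9 had 1 row in the table, and each was among the 27259 genes that passed the filter on low values (at least 0.1 TPM in at least 2 libraries). The members were named by their place in the complex and not by their values.

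RNA from mouse cells of the C57BL6 strain was sequenced in 10 libraries, 2 replicates in each of 5 groups. ESCs were a female line from fertilized blastocysts. Parthenogenetic ESCs (pESCs) came from oocytes activated with strontium and thus carry maternal chromosomes alone. Per the study's methods, the oocyte donors and both parents of the fertilized blastocysts carried an Actin-GFP transgene, so both stem cell lines share it. ESC-PGCLCs and pESC-PGCLCs were primordial germ cell-like cells induced from these lines. Per the labels, epiblast-like cells formed over 2 days with 1% KSR, bFGF at 1 ng/mL and Activin A at 2 ng/mL. PGCLCs formed over the following 4 days with BMP4 at 500 ng/mL, SCF at 100 ng/mL, EGF at 50 ng/mL and LIF at 1000 IU/mL, and were sorted for SSEA1 and CD61. The study's methods state other doses for the first step, so the dose used is uncertain. The labels also describe a treatment with crotonic acid that no sample title assigns. PGCs were primordial germ cells taken from embryos, for which the labels give no embryonic day. Both stem cell lines were kept on mouse embryonic fibroblast feeders. The study's figure legends call the RNA-seq replicates biological, but neither they nor the labels say whether these were separate cultures or lines. The p-values measure the spread between these samples, which may not include the spread between lines.

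In PRC1.6 the Polycomb finger protein PCGF6 pairs with a RING protein, RING1 or RNF2, which attaches ubiquitin to histone H2A. The complex reaches DNA through the dimer of MGA with MAX, which binds the E-box, and through E2F6 with a DP partner, which binds E2F sites. L3MBTL2 binds chromatin through its MBT domains, CBX3 (HP1 gamma) binds methylated histone H3 lysine 9, and RYBP or its relative YAF2 bridges to the RING protein. In ESCs, loss of these subunits is known to release genes of meiosis and of the piRNA pathway.

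To show motifs that the DNA-binding subunits are known to read, the promoter windows of germline genes were searched on both strands for the E-box, CACGTG. They were also searched for the E2F core, TCCCGC, which appears as its reverse complement where it lies on the other strand. The end base of one motif can also be the start base of the other. A window ran from 250 bases before to 50 bases after a RefSeq start site (GRCm38.p6). A list of 19 germline genes known to be held silent by PRC1.6 subunits was written by hand, and 18 of them had a window. The E-box letters stood in the windows of 9 of these 18 genes (50.0%) against 8.09% of 27025 genes, the E2F letters in 10 (55.6%) against 22.05%, and both in 6 (33.3%) against 2.65%. A match describes the letters and is not evidence of binding. As the list was picked as known targets of the complex, the shares describe that choice and are not a test. Of the 8 subunit genes with a window, Max had the E-box letters, and E2f6 and Rnf2 had the E2F letters. The stretches below lie upstream of the start site and are given 5′ to 3′ on the strand of the gene, with motif letters in capitals. The first 4 genes carry both motifs, Smc1b and Taf7l carry 1 each, and E2f6 is shown because its own promoter holds the E2F core.
Sycp3 (chr10:88459420-88459569, plus strand): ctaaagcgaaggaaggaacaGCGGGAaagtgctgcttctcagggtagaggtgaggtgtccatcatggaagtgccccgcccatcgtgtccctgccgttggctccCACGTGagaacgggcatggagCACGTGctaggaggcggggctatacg
Hormad1 (chr3:95559562-95559676, plus strand): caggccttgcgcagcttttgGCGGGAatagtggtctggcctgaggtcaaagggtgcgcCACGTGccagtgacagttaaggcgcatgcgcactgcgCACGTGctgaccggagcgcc
Mael (chr1:166238862-166238987, minus strand): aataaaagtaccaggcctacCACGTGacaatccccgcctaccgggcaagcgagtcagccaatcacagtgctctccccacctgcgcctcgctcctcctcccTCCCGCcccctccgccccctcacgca
Slc25a31 (chr3:40708758-40708803, plus strand): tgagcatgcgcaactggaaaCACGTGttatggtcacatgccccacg
Smc1b (chr15:85131979-85132024, minus strand): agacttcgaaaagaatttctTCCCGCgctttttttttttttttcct
Taf7l (chrX:134476514-134476559, minus strand): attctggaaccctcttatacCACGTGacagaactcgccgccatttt
E2f6 (chr12:16810892-16810937, plus strand): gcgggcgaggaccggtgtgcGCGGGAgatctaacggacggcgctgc
Sycp3 and Hormad1 each had 2 E-boxes and an E2F core within these stretches. The E2F core of Slc25a31 and the second E2F core of Mael lie after the start site and are not printed.

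Values are TPM, in which reads are corrected for the length of the gene and every library is brought to the same sum, so levels can be compared between genes. The reads on genes recovered from TPM lay between 6779837 (ESC-PGCLC replicate 2) and 18572900 (ESC replicate 2). Before the subunits were compared, the labels were checked against marker genes. The 7 pluripotency markers summed to 637 to 1040 TPM in the stem cells and to 136 to 222 TPM in PGCLCs and PGCs. Nanog, at 404 to 674 TPM, gave most of the sum in the stem cells. In ESC-PGCLCs against ESCs 6 of the 7 were called lower, beside 14.5% of all genes, and Sox2 was called higher (log2 fold change 1.42). Sox2 was at 32.7 and 44.6 TPM in ESCs, 97.3 and 110.5 TPM in ESC-PGCLCs, and 83.4 and 75.1 TPM in PGCs. In pESC-PGCLCs against pESCs 5 of the 7 were called lower and 0 higher, beside 6.80% and 20.8% of all genes, with Sox2 at -0.81. Pou5f1, the pluripotency factor that early germ cells keep, was at 7.49 to 23.5 TPM in the stem cells. It was at 0.374 TPM in ESC-PGCLC replicate 1 (4 reads), listed at 0 in ESC-PGCLC replicate 2, and at 1.63 to 3.14 TPM in the pESC-PGCLC and PGC libraries. The study reports high expression of Oct4 (Pou5f1) in both stem cell lines. Sequence shared with other genes was not checked for Pou5f1, so its level here is uncertain. The 7 early germ cell markers, Dppa3 above all, summed to 391 to 909 TPM in the stem cells. Their sums were 5741 and 5797 TPM in ESC-PGCLCs, 4689 and 5073 TPM in pESC-PGCLCs, and 3309 and 4315 TPM in PGCs. By the test described below, 6 of the 7 were called higher in ESC-PGCLCs than in ESCs, beside 15.3% of all genes. In pESC-PGCLCs against pESCs 5 were called higher, beside 20.8% of all genes. The libraries labelled as PGCLCs carried markers of later germ cells (Ddx4, Dazl, Mael and Sycp3), which summed to 2131 to 3854 TPM against 29.1 to 58.9 TPM in the stem cells. They also carried markers of gonadal somatic cells and of erythroid cells, which the labels do not name. The 6 gonadal markers summed to 15.3 and 19.1 TPM in ESC-PGCLCs, 32.2 and 38.4 TPM in pESC-PGCLCs, 67.3 and 75.8 TPM in PGCs and 3.79 to 4.77 TPM in the stem cells, and 3 of 6, 5 of 6 and 5 of 6 reached 1 TPM in both libraries of the first 3 groups. The 7 erythroid markers, haemoglobin genes above all, summed to 438 and 504 TPM in ESC-PGCLCs, 2230 and 2762 TPM in pESC-PGCLCs and 1703 and 1890 TPM in PGCs, against 0.109 to 4.09 TPM in the stem cells, with Alas2 listed at 0 in ESC-PGCLC replicate 2. Fibroblast markers summed to at most 0.512 TPM in the stem cells and to at most 10.9 TPM elsewhere. The part of these cells in the results below was not tested. It is thus uncertain whether the libraries labelled as PGCLCs hold cells of the stage named, and ESC-PGCLC and pESC-PGCLC stand below for the libraries so labelled. In both PGCLC groups the gonadal and erythroid markers were present in every library, so no comparison of PGCLCs could be made without them.

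Comparisons were made with limma on log2(TPM + 1). Calls required both an adjusted p below 0.05 and a 2-fold or larger difference. Fold changes on this scale understate the change of genes at low levels. For 2 against 2 libraries the smallest two-sided p that exact permutation allows is 0.333, and the limma p-values instead borrow the spread of all genes. In these bulk samples, fewer cells of a type and less RNA per cell cannot be told apart. The share of all genes with an unadjusted p under 0.05 was not counted, so counts at that p have no background beside them. The comparisons share groups, so their values are given side by side and were not tested against each other.

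**Figure D1:**
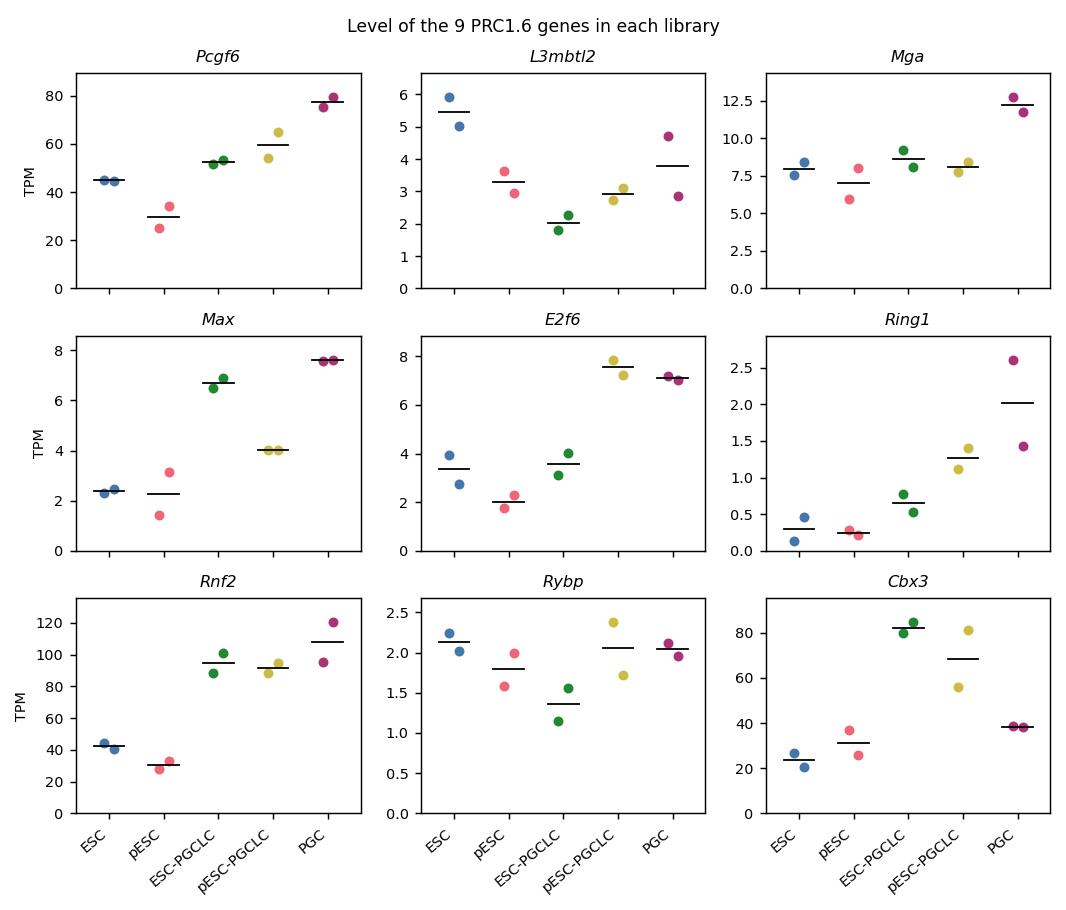
Level (TPM, linear axis from 0) of the 9 PRC1.6 genes. Points are libraries and black lines are means of 2 libraries. Rnf2, Max and Cbx3 were higher in both PGCLC groups than in both stem cell groups, E2f6 was high in pESC-PGCLCs and PGCs, and L3mbtl2 was highest in ESCs.

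The DNA-binding arm comprised Mga, Max and E2f6. Mga (chr2:119897228-119969581), the scaffold that pairs with MAX, stood at 7.56 and 8.40 TPM in ESCs, 5.97 and 8.02 TPM in pESCs, 9.20 and 8.12 TPM in ESC-PGCLCs, 7.78 and 8.43 TPM in pESC-PGCLCs, and 12.8 and 11.7 TPM in PGCs. The first 4 groups overlapped with at least a neighbour, and both PGC libraries were above all others. Mga passed the test in none of the 7 comparisons. Its 4 log2 fold changes among cultured cells lay between -0.18 (pESC vs ESC) and 0.20 (pESC-PGCLC vs pESC).

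For Max (chr12:76937269-76962201), the small partner that MGA shares with MYC and the MXD proteins, the values were 2.32 and 2.48 TPM in ESCs, 1.42 and 3.14 TPM in pESCs, 6.49 and 6.90 TPM in ESC-PGCLCs, 4.01 and 4.02 TPM in pESC-PGCLCs, and 7.58 and 7.63 TPM in PGCs. The pESC replicates differed most, from 45 and 98 reads. Max rose in ESC-PGCLCs (log2 fold change 1.18 ± 0.24 SE, adjusted p = 0.00456) and was called there under all 14 alternatives. In pESC-PGCLCs against pESCs it missed the threshold (log2 fold change 0.66, adjusted p = 0.0558), and without pESC replicate 2 it passed, at 1.05.

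E2f6 (chr12:16810963-16839742), an E2F family member that represses without binding RB proteins, was measured at 3.95 and 2.76 TPM in ESCs, 1.75 and 2.30 TPM in pESCs, 3.12 and 4.03 TPM in ESC-PGCLCs, 7.86 and 7.23 TPM in pESC-PGCLCs, and 7.20 and 7.02 TPM in PGCs. ESCs and ESC-PGCLCs overlapped, whereas both pESC-PGCLC libraries were above all ESC-PGCLC libraries and both pESC libraries were below all others. E2f6 rose in pESC-PGCLCs against pESCs (log2 fold change 1.503 ± 0.20 SE, adjusted p = 0.000557) and had a log2 fold change of 0.08 ± 0.20 in ESC-PGCLCs against ESCs. The interaction of origin and differentiation, which tests the difference between these 2 changes, was 1.43 ± 0.28 SE (adjusted p = 0.00925). Median centring and quantile normalization took the interaction below the fold minimum, at 0.68 and 0.92.

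Of the RING pair, Rnf2 (chr1:151458004-151500955), which encodes the main H2A ubiquitin ligase of ESCs, had 44.4 and 40.7 TPM in ESCs, 28.0 and 33.1 TPM in pESCs, 88.5 and 101 TPM in ESC-PGCLCs, 88.5 and 94.5 TPM in pESC-PGCLCs, and 95.5 and 121 TPM in PGCs. All PGCLC and PGC libraries were above all stem cell libraries. The rise was 1.14 ± 0.16 SE on the log2 scale in ESC-PGCLCs (adjusted p = 0.000698) and 1.56 ± 0.16 SE in pESC-PGCLCs (adjusted p = 0.000172).

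Ring1 (chr17:34020792-34024680), its paralog, lay far lower, at 0.134 and 0.467 TPM in ESCs, 0.281 and 0.213 TPM in pESCs, 0.778 and 0.530 TPM in ESC-PGCLCs, 1.12 and 1.41 TPM in pESC-PGCLCs, and 2.61 and 1.43 TPM in PGCs. It rested on 4 to 18 reads per stem cell library and on 7 to 54 reads in the others. Ring1 made up 0.301% to 2.66% of the summed TPM of the pair, and Rnf2 exceeded it by 36.6-fold (PGC replicate 1) to 331-fold (ESC replicate 1). In pESC-PGCLCs against pESCs its log2 fold change was 0.86 ± 0.23 SE (adjusted p = 0.016), under the fold minimum. With a pseudocount of 0.1 it was 1.98 and was called, as it was with voom on recovered reads (2.00).

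Among the members that define the complex, Pcgf6 (chr19:47033617-47050906) was at 45.1 and 44.7 TPM in ESCs, 24.9 and 34.3 TPM in pESCs, 51.8 and 53.4 TPM in ESC-PGCLCs, 54.3 and 64.8 TPM in pESC-PGCLCs, and 75.1 and 79.4 TPM in PGCs. No 2 groups overlapped, with the order pESC, ESC, ESC-PGCLC, pESC-PGCLC and PGC, although the gap between ESC-PGCLCs and pESC-PGCLCs was smaller than the spread of the latter. The largest change was in pESC-PGCLCs against pESCs, at 0.997 on the log2 scale (SE 0.17, adjusted p = 0.00202), just under the fold minimum. It passed with a pseudocount of 0.1 (1.02), without pESC replicate 2 (1.22) and without pESC-PGCLC replicate 1 (1.12).

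L3mbtl2 (chr15:81663889-81688315) went the other way from most subunits, with 5.92 and 5.02 TPM in ESCs, 3.64 and 2.95 TPM in pESCs, 1.80 and 2.27 TPM in ESC-PGCLCs, 2.73 and 3.09 TPM in pESC-PGCLCs, and 4.72 and 2.85 TPM in PGCs. Both ESC libraries were above all others and both ESC-PGCLC libraries below all others, while pESCs, pESC-PGCLCs and PGCs overlapped. It fell by 1.09 on the log2 scale in ESC-PGCLCs (SE 0.23, adjusted p = 0.00495), from 324 and 355 reads to 51 and 55 reads. Without ESC replicate 1 (-0.99) or without ESC-PGCLC replicate 1 (-0.98) it missed the fold minimum. Of its exonic bases 17.2% overlap Chadl on the opposite strand, and the counting is not stated to use strand.

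Rybp (chr6:100228565-100287485), the bridge between RING protein and chromatin, was nearly level at 2.24 and 2.02 TPM in ESCs, 1.58 and 2.00 TPM in pESCs, 1.15 and 1.56 TPM in ESC-PGCLCs, 2.38 and 1.73 TPM in pESC-PGCLCs, and 2.12 and 1.96 TPM in PGCs. It was called in none of the 7 comparisons or their alternatives. The 95% interval of its change ran from -0.86 to 0.02 on the log2 scale in ESC-PGCLCs against ESCs and from -0.32 to 0.57 in pESC-PGCLCs against pESCs. A processed copy, Rybp-ps, shares 4.84% of its 100-base stretches.

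Cbx3 (chr6:51470360-51483704), the HP1 gamma gene, was highest in the 2 PGCLC groups, with 26.8 and 20.5 TPM in ESCs, 36.9 and 25.8 TPM in pESCs, 79.9 and 84.7 TPM in ESC-PGCLCs, 55.9 and 81.1 TPM in pESC-PGCLCs, and 38.6 and 38.4 TPM in PGCs. The 2 PGCLC groups overlapped, as did the 2 stem cell groups. The log2 fold change was 1.77 ± 0.23 SE in ESC-PGCLCs against ESCs (adjusted p = 0.00047), 1.10 ± 0.23 SE in pESC-PGCLCs against pESCs (adjusted p = 0.00588) and -1.08 ± 0.23 SE in PGCs against ESC-PGCLCs (adjusted p = 0.0121). The rise in pESC-PGCLCs fell under the fold minimum without pESC replicate 2 (0.85), without pESC-PGCLC replicate 2 (0.84) and with voom (0.84). The difference of PGCs from ESC-PGCLCs lost its call under 2 of 13 alternatives, without ESC-PGCLC replicate 2 (-1.04) and without PGC replicate 1 (-1.08). Against pESC-PGCLCs the PGCs were at -0.79 (limma adjusted p = 0.0719) and not called. The pseudogene Cbx3-ps7 shares 5.70% of its 100-base stretches.

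To ask whether parthenogenetic origin went with another level of the complex, pESCs were compared with ESCs. Of the 9 genes, 0 were called by limma and 0 by voom, against 0.165% of all genes called higher and 0.616% called lower. That background rested on single libraries, with 45 genes higher and 168 lower as reported, 2 genes in all without ESC replicate 1, 962 without pESC replicate 2 and 0 with the compared groups alone in the fit. At an unadjusted p under 0.05, 4 passed, all lower in pESCs, namely Pcgf6 (log2 fold change -0.60, adjusted p = 0.113), L3mbtl2 (-0.59, adjusted p = 0.219), E2f6 (-0.52, adjusted p = 0.219) and Rnf2 (-0.47, adjusted p = 0.177). In all, 8 of 9 point estimates were lower, with a median of -0.18 against -0.06 for all genes. The share of all genes with a lower point estimate was not counted. Median centring moved the median of all genes to 0.28, and on that scale Mga, Max, Ring1 and Rybp joined Cbx3 above 0, so that the lower side held 4 of 9. Pcgf6, L3mbtl2, E2f6 and Rnf2 stayed below 0 on every scale tried.

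**Figure D2:**
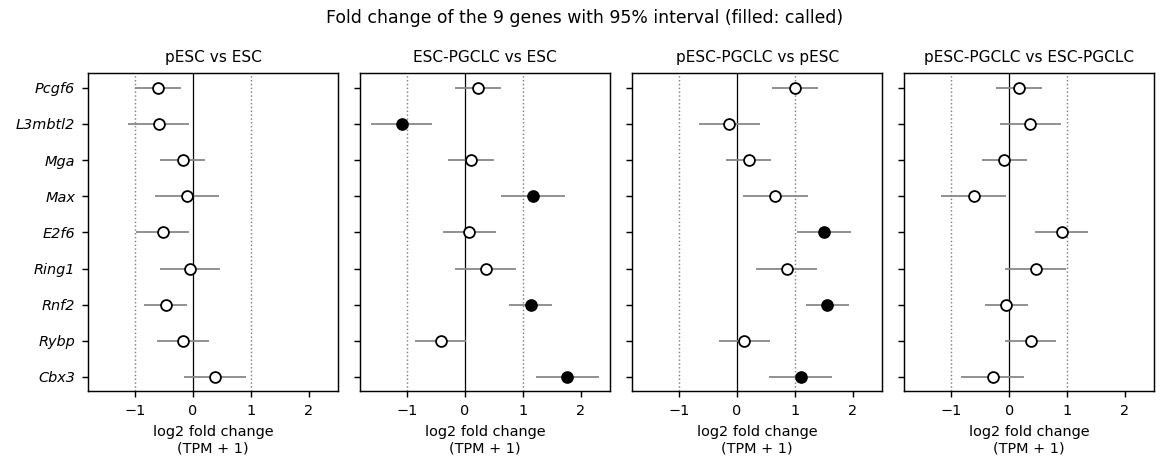
Log2 fold change of the 9 genes on the log2(TPM + 1) scale in 4 comparisons. Points are limma estimates, bars 95% intervals and dotted lines the 2-fold minimum, with filled points called. Calls appear in ESC-PGCLCs against ESCs (Rnf2, Cbx3 and Max higher, L3mbtl2 lower) and in pESC-PGCLCs against pESCs (Rnf2, E2f6 and Cbx3 higher).

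Between pESC-PGCLCs and ESC-PGCLCs, 0 of the 9 were called by limma or by voom, and 2 passed at an unadjusted p under 0.05, whereas 10.3% of all genes were called higher and 3.08% lower. E2f6 came closest, higher by 0.91 on the log2 scale (SE 0.20, adjusted p = 0.0138), and it was called without ESC-PGCLC replicate 2 (1.05) or with a pseudocount of 0.1 (1.07). Max was lower by point estimate (-0.62, adjusted p = 0.107), and after median centring it was called (-1.03). The gonadal and erythroid marker sums given above were higher in pESC-PGCLCs than in ESC-PGCLCs, and their part in these values was not tested.

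In the libraries labelled ESC-PGCLC against ESCs, 3 of 9 members rose (Cbx3, Max and Rnf2) and 1 fell (L3mbtl2), against 15.3% of all genes called higher and 14.5% called lower. The other 5, Pcgf6, Mga, E2f6, Ring1 and Rybp, lay between -0.42 and 0.36 on the log2 scale. The median of all genes was 0.05 as deposited and 0.06 after median centring, and the same 4 genes were called under both, under quantile normalization and with voom.

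In the libraries labelled pESC-PGCLC against pESCs, 3 of 9 rose (Rnf2, E2f6 and Cbx3) and 0 fell, against 20.8% of all genes called higher and 6.80% called lower. Pcgf6 and Ring1 passed the adjusted p alone. These calls depended on the scaling, since the median of all genes was 0.22 as deposited, 0.02 after quantile normalization and -0.51 after median centring. Rnf2 was at 1.16 after quantile normalization and 0.83 after median centring, E2f6 at 0.88 and 0.77, and Cbx3 at 0.68 and 0.37, so 1 call was kept under the first and 0 under the second. All 3 point estimates stayed positive. L3mbtl2 stayed negative (-0.13 as deposited, -0.86 after median centring), and Mga and Rybp turned negative under both scalings.

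**Figure D3:**
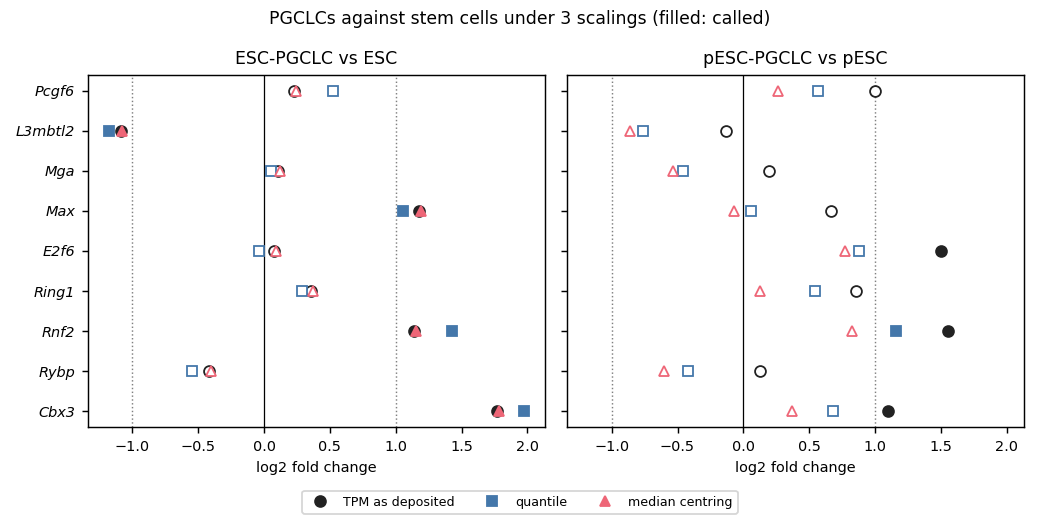
Log2 fold change of the 9 genes in PGCLCs against their stem cells with TPM as deposited, after quantile normalization and after median centring. Filled symbols are called and dotted lines mark the 2-fold minimum. For ESC-PGCLCs the deposited and centred values nearly coincide and the same 4 genes are called on each scale, whereas for pESC-PGCLCs the centred values lie lower for all 9 genes and 0 of them are called.

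For the interaction, 1 of 9 was called higher (E2f6) and 0 lower, against 15.5% of all genes called higher and 3.53% lower. Median centring moved the all-gene median from 0.21 to -0.54, and then Max (-1.26) and Cbx3 (-1.41) were called lower instead. The summed TPM of the 9 genes was 127 and 138 in ESCs, 104 and 112 in pESCs, 243 and 263 in ESC-PGCLCs, 225 and 266 in pESC-PGCLCs, and 246 and 271 in PGCs. Most of it came from Pcgf6, Rnf2 and Cbx3.

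In PGCs against ESC-PGCLCs, 0 members were called higher and 1 lower (Cbx3), against 12.0% and 1.88% of all genes. E2f6 (0.83, adjusted p = 0.017), Ring1 (0.85, adjusted p = 0.026) and Pcgf6 (0.54, adjusted p = 0.0443) passed the adjusted p with less than a 2-fold change, and without PGC replicate 2 Ring1 was called (1.13). After median centring, which moved the median of all genes from 0.27 to -0.34, E2f6 was at 0.23, Ring1 at 0.24 and Pcgf6 at -0.06, whereas Cbx3 was at -1.68 and still called. In PGCs against pESC-PGCLCs, 0 of the 9 were called by limma or by voom, with 3 at an unadjusted p under 0.05 (Max 0.78, Mga 0.54 and Cbx3 -0.79), against 2.07% of all genes called higher and 1.6% lower. Those 564 and 436 genes became 15 in all without pESC-PGCLC replicate 2, 2015 without PGC replicate 2 and 0 with the compared groups alone in the fit.

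Of 8 partners and co-repressors on a list written by hand, 4 rose and 1 fell in ESC-PGCLCs against ESCs, beside 15.3% and 14.5% of all genes, with a median of 1.09 against 0.05 for all genes. Yaf2, the paralog of Rybp, stood at 2.90 and 2.87 TPM in ESCs, 2.61 and 4.56 TPM in pESCs, 41.2 and 53.8 TPM in ESC-PGCLCs, 54.8 and 54.8 TPM in pESC-PGCLCs, and 63.6 and 60.3 TPM in PGCs. Stem cells and germ cells did not overlap, and the log2 fold change was 3.63 ± 0.22 SE in ESC-PGCLCs (adjusted p = 9.97e-06) and 3.64 ± 0.22 SE in pESC-PGCLCs (adjusted p = 1.615e-05). In the same libraries Rybp was between 1.15 and 2.38 TPM.

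The histone deacetylase genes moved in opposite directions. Hdac1 was at 190 and 161 TPM in ESCs, 85.5 and 110 TPM in pESCs, 11.3 and 10.1 TPM in ESC-PGCLCs, 14.3 and 15.8 TPM in pESC-PGCLCs, and 10.3 and 9.74 TPM in PGCs. It fell by 3.91 on the log2 scale in ESC-PGCLCs and by 2.61 in pESC-PGCLCs, while Gm10093 shares 24.9% of its 100-base stretches. Hdac2 had 64.7 to 68.9 TPM in ESCs, 36.6 to 49.1 TPM in pESCs and 136 to 185 TPM in the PGCLC and PGC libraries, with log2 fold changes of 1.18 in ESC-PGCLCs (named after its value was seen) and 1.72 in pESC-PGCLCs, the latter at 0.99 and not called after median centring.

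The other partners that rose in ESC-PGCLCs were Tfdp2 (1.51), a DP partner of E2F proteins, and Ehmt1 (1.42), a methyltransferase of histone H3 lysine 9. Of the 8 partners 5 rose and 1 fell in pESC-PGCLCs against pESCs, beside 20.8% and 6.80% of all genes, and after median centring 2 rose and 1 fell. Tfdp1, the other DP gene, rose by 1.78 (1.05 after median centring), from 17.5 and 25.9 TPM to 75.8 and 75.1 TPM. Ehmt1 (1.70) and Tfdp2 (1.37) rose as well and were under the fold minimum after median centring, and both were named after their values were seen. In PGCs, Wdr5, a WD40 protein of the complex, was above ESC-PGCLCs (1.33) and above pESC-PGCLCs (1.07), and Ehmt2 was above ESC-PGCLCs (1.32). These 3 were under the fold minimum after median centring. Of the 8 partners, 0 were called between pESCs and ESCs or between the 2 kinds of PGCLC, by limma or by voom, with 4 and 3 at an unadjusted p under 0.05. Over all genes, limma called 0.165% higher and 0.616% lower in the first comparison, and 10.3% and 3.08% in the second.

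**Figure D4:**
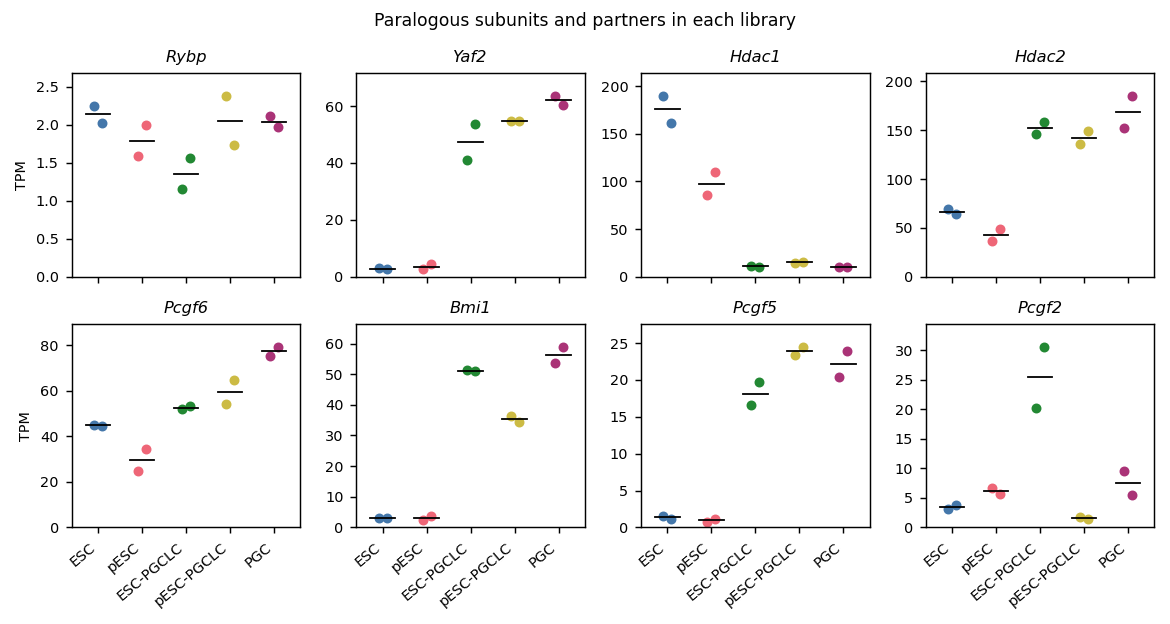
Level (TPM, linear axis from 0, a scale of its own per panel) of Rybp and its paralog Yaf2, of Hdac1 and Hdac2, and of Pcgf6 beside the PCGF genes Bmi1, Pcgf5 and Pcgf2. Points are libraries and lines means of 2. Yaf2, Hdac2, Bmi1 and Pcgf5 are higher in PGCLCs and PGCs than in stem cells, Hdac1 is lower, and Pcgf2 is high in ESC-PGCLCs.

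Pcgf6 was compared with the PCGF genes that define the other PRC1 complexes, as part of a list of 19 PRC1 genes. In ESC-PGCLCs against ESCs 9 of the 19 rose and 1 fell, beside 15.3% and 14.5% of all genes. In pESC-PGCLCs against pESCs the numbers were 9 and 1 as deposited, 5 and 1 after quantile normalization and 4 and 2 after median centring, beside 20.8% and 6.80% of all genes as deposited. Bmi1 (Pcgf4), a subunit of canonical PRC1, went from 3.03 and 2.98 TPM in ESCs and 2.55 and 3.75 TPM in pESCs to 51.3 and 51.0 TPM in ESC-PGCLCs, 36.2 and 34.4 TPM in pESC-PGCLCs, and 53.6 and 59.0 TPM in PGCs. Pcgf5 went from 1.54 and 1.16 TPM in ESCs and 0.793 and 1.20 TPM in pESCs to 16.6 and 19.7 TPM in ESC-PGCLCs, 23.4 and 24.5 TPM in pESC-PGCLCs, and 20.4 and 23.9 TPM in PGCs. Their log2 fold changes were 3.70 and 3.03 in ESC-PGCLCs and 3.15 and 3.65 in pESC-PGCLCs, against 0.22 and 0.997 for Pcgf6. In the stem cells Pcgf6 was above Bmi1 and Pcgf5 in every library, and it also lay above both in the PGCLC and PGC libraries. In ESC-PGCLCs, however, it was nearly level with Bmi1, at 51.8 and 53.4 TPM against 51.3 and 51.0 TPM. Gm5946 shares 6.52% of the 100-base stretches of Bmi1.

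Pcgf2 and Pcgf1 separated the 2 kinds of PGCLC. Pcgf2, the paralog of Bmi1, was at 3.11 and 3.79 TPM in ESCs, 6.71 and 5.60 TPM in pESCs, 20.1 and 30.6 TPM in ESC-PGCLCs, 1.77 and 1.48 TPM in pESC-PGCLCs, and 9.56 and 5.49 TPM in PGCs. It rose in ESC-PGCLCs (2.54), fell in pESC-PGCLCs (-1.45) and differed by -3.30 ± 0.28 SE between them (adjusted p = 0.000247). Pcgf1, of the BCOR complex PRC1.1, was at 7.91 and 7.60 TPM in ESC-PGCLCs and 29.1 and 25.3 TPM in pESC-PGCLCs, a difference of 1.68 ± 0.18 SE (adjusted p = 0.000569), against 22.8 to 26.5 TPM in ESCs and 16.7 to 20.5 TPM in pESCs. Cbx2 (2.04), a chromodomain subunit of canonical PRC1, and Pcgf3 (1.77) rose in pESC-PGCLCs against pESCs, and neither was called between the 2 kinds of PGCLC. Pcgf3 rose in ESC-PGCLCs as well (1.40, named after its value was seen). In PGCs Pcgf2 was below ESC-PGCLCs (-1.64) and above pESC-PGCLCs (1.66), and Cbx2 was above ESC-PGCLCs (1.49, not called after median centring). Between pESCs and ESCs 0 of the 19 were called by limma or voom, with 2 at an unadjusted p under 0.05. Limma called 0.165% of all genes higher and 0.616% lower there.

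MAX also serves the MYC and MXD proteins, and 8 genes of that network were listed. Over all genes, 15.3% were called higher and 14.5% lower in ESC-PGCLCs against ESCs, and 20.8% and 6.80% in pESC-PGCLCs against pESCs. The shares were 10.3% and 3.08% between the 2 kinds of PGCLC, and 12.0% and 1.88% in PGCs against ESC-PGCLCs. In ESC-PGCLCs Mycn rose (2.03, from 18.2 and 15.8 TPM to 66.6 and 78.3 TPM), Mxd4 rose (1.37) and Mxd3 fell (-1.81). In pESC-PGCLCs against pESCs Mxd4 rose by 2.81, and Mycl (1.34) and Mxi1 (1.02) were called as deposited but not after median centring. Between the 2 kinds of PGCLC, Mycn was lower in pESC-PGCLCs (-1.15), while Mxd4 (1.41) and Mxd3 (1.27) were higher and missed the fold minimum after median centring. In PGCs against ESC-PGCLCs Mxd3 (1.67), Mxd4 (1.65) and Mxi1 (1.10, or 0.50 after median centring) were higher. After median centring Myc (-1.25) and Mycn (-1.04), named after their values were seen, were called lower there, so that 3 higher and 0 lower became 2 and 2. In PGCs 0 of the 8 were called against pESC-PGCLCs by limma, with 3 at an unadjusted p under 0.05 and 1 called by voom. Between pESCs and ESCs 0 were called by limma or voom, with 2 at an unadjusted p under 0.05. The shares of all genes there were 0.165% higher and 0.616% lower by limma.

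Among 7 other E2F genes, E2f8 (1.55) and E2f3 (1.005, which missed the fold minimum after quantile normalization) rose in ESC-PGCLCs, and E2f1 (1.14, or 0.41 after median centring) rose in pESC-PGCLCs. Of all genes, 15.3% and 20.8% were called higher in these 2 comparisons. In PGCs E2f4 was higher than in ESC-PGCLCs (1.06) and pESC-PGCLCs (1.02), and E2f1 higher than in ESC-PGCLCs (1.05), all under the fold minimum after median centring. Of all genes, 12.0% were called higher in PGCs than in ESC-PGCLCs and 2.07% than in pESC-PGCLCs. The difference of E2f4 from pESC-PGCLCs was called under 4 of 13 alternatives. E2f5 had the highest level of the family, at 94.5 to 170 TPM. E2f6, at 1.75 to 7.86 TPM, lay below E2f5 in every library. By limma or voom 0 of the 7 were called between pESCs and ESCs or between the 2 kinds of PGCLC, with 1 and 3 at an unadjusted p under 0.05. Of all genes, limma called 0.165% higher and 0.616% lower in the first comparison, and 10.3% and 3.08% in the second. After median centring E2f8 was called lower in pESC-PGCLCs than in ESC-PGCLCs (-1.11).

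Of 5 HP1 and MBT paralogs, 4 were tested and L3mbtl4 was not, as it was at or near 0 in each library. Cbx5 (HP1 alpha) fell in ESC-PGCLCs against ESCs (-1.21, or -0.99 after quantile normalization), from 42.5 and 39.0 TPM to 15.7 and 18.4 TPM, where Cbx3 rose. Cbx1 (HP1 beta) was at 41.3 to 55.9 TPM in the stem cells and 74.2 to 94.7 TPM elsewhere and was called in none of the comparisons, although it passed in ESC-PGCLCs after quantile normalization (1.01). L3mbtl1 reached at most 0.527 TPM and L3mbtl3 at most 1.30 TPM, so L3mbtl2 was the member of this family with the highest level in every library.

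The 19 germline genes listed by hand as held silent by PRC1.6 subunits were read out in the same libraries. Not all were near 0 in the stem cells. Hormad1 was at 49.3 to 97.5 TPM there and Tuba3a at 9.14 to 72.6 TPM, both named after their values were seen. Between pESCs and ESCs 0 of the 19 were called by limma, beside 0.165% of all genes called higher and 0.616% lower. There 6 had an unadjusted p under 0.05 and 1 was called by voom, and the median was 0.08 against -0.06 for all genes. Sycp3, a protein of the synaptonemal complex, was at 12.4 and 13.8 TPM in ESCs and 24.7 and 35.8 TPM in pESCs (log2 fold change 1.13, adjusted p = 0.0645). Stra8, which gates entry into meiosis, was at 2.53 and 3.59 TPM in ESCs and 5.49 and 5.76 TPM in pESCs (0.72, adjusted p = 0.0674). For both, the pESC libraries were above the ESC libraries, and the difference did not pass as deposited. Sycp3 passed after quantile normalization (1.29), after median centring (1.46) and with voom (1.31), and Stra8 passed after median centring (1.05). Of Sycp3's exonic bases 52.2% overlap Chpt1 on the opposite strand.

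In PGCLCs these genes rose, with 18 of 19 called in ESC-PGCLCs against ESCs (median 5.01) and 19 of 19 in pESC-PGCLCs against pESCs (median 4.87), and 0 fell, where 15.3% and 20.8% of all genes were called higher. The counts were 18 and 19 after median centring, and 19 and 19 after quantile normalization and with voom. Slc25a31, an ADP/ATP carrier of germ cells, went from 1.02 and 1.66 TPM in ESCs and 0.374 and 1.90 TPM in pESCs to 440 and 475 TPM in ESC-PGCLCs, 422 and 416 TPM in pESC-PGCLCs, and 277 and 495 TPM in PGCs. Its log2 fold changes were 7.63 ± 0.38 SE and 7.72 ± 0.38 SE. Ddx4, the VASA helicase, rose from 1.51 to 3.35 TPM in the stem cells to 260 and 281 TPM in ESC-PGCLCs, 186 and 191 TPM in pESC-PGCLCs, and 189 and 303 TPM in PGCs. Dazl, an RNA-binding protein of germ cells, stood at 12.1 to 18.7 TPM in the stem cells and at 1084 to 2095 TPM elsewhere. Mael, a piRNA factor, was at 0.940 to 1.71 TPM in the stem cells and at 86.4 and 101 TPM in ESC-PGCLCs, 149 and 140 TPM in pESC-PGCLCs, and 203 and 195 TPM in PGCs. Smc1b, a cohesin of meiosis, rose by 6.99 in ESC-PGCLCs and 6.12 in pESC-PGCLCs. The gene not called in ESC-PGCLCs was Tuba3a (1.498, adjusted p = 0.0613), a testis tubulin, named after its value was seen, which was called under 5 of 14 alternatives. The level of later germ cell genes in the libraries labelled as PGCLCs is the marker observation given above.

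**Figure D5:**
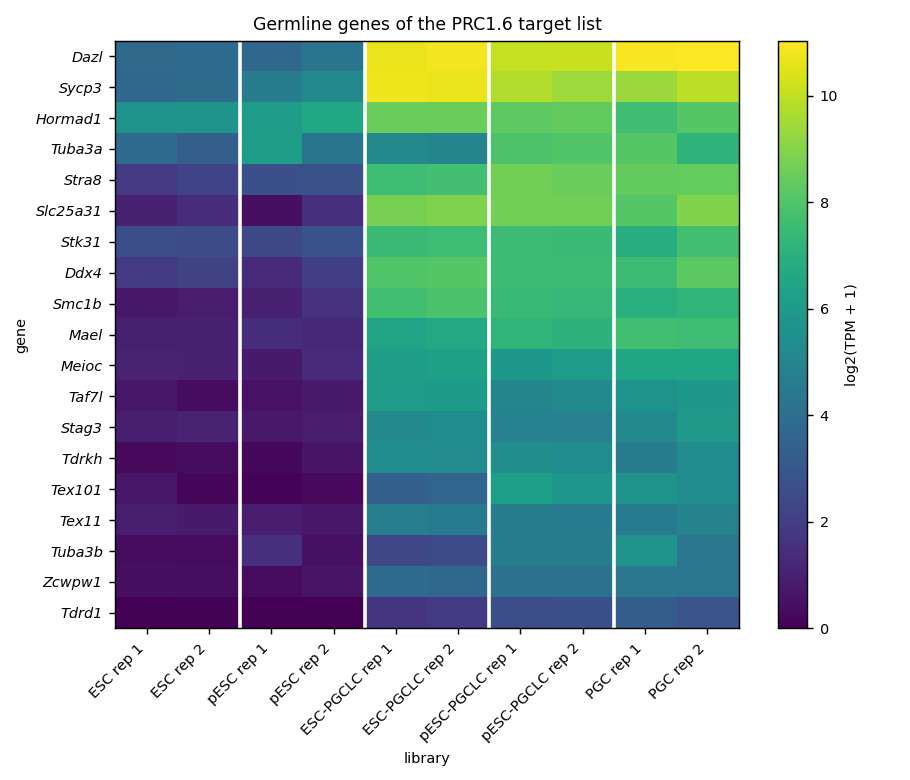
Level of the 19 germline genes as log2(TPM + 1), 1 column per library, genes ordered by mean. In the 4 stem cell libraries most genes are dark, with Hormad1, Tuba3a, Dazl and Sycp3 the brightest, and the 6 PGCLC and PGC libraries are bright for nearly every gene.

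Between the kinds of PGCLC, Tuba3a (2.90), Tex101 (2.51) and Tuba3b (2.25) were higher in pESC-PGCLCs and Sycp3 was lower (-1.12), from 1702 and 1651 TPM in ESC-PGCLCs to 867 and 685 TPM in pESC-PGCLCs. Over all genes 10.3% were called higher and 3.08% lower in that comparison. Tuba3a and Tuba3b share 12.3% and 11.8% of their 100-base stretches with each other, so reads can pass between them. Stra8 was higher by 0.93 (adjusted p = 0.00472) and Mael by 0.62 (adjusted p = 0.0154), both under the fold minimum, and Dazl was lower by point estimate (-0.66, adjusted p = 0.0395) and was called after median centring (-1.07). In PGCs against ESC-PGCLCs 5 were called higher, Tuba3b (2.59), Tuba3a (2.55), Tex101 (2.03), Tdrd1 (1.33) and Mael (1.08), and Sycp3 lower (-1.06), beside 12.0% and 1.88% of all genes. Mael and Tdrd1 were not called after median centring, and Sycp3 was not called after quantile normalization (-0.91). After median centring Smc1b (-1.24) and Hormad1 (-1.24), named after their values were seen, were called lower as well, so that 5 higher and 1 lower became 3 and 3. Against pESC-PGCLCs 0 of the 19 were called by limma or voom, with 5 at an unadjusted p under 0.05.

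To find genes with a pattern like that of the regulators, log2(TPM + 1) was centred on each gene's mean over the 10 libraries, and the root mean square difference was taken to each of 14839 genes whose mean reached 1 TPM. Nearest to Pcgf6 were Orc2 (0.0889), a subunit of the origin recognition complex, Rrm1 (0.0891), of ribonucleotide reductase, and Serinc1 (0.0903). L3mbtl2 was nearest to Gtf2h3 (0.115), a TFIIH subunit, Apex2 (0.127) and Abtb1 (0.128). For Mga the nearest were Dclre1b (0.0583), Trak2 (0.0676) and Ocln (0.0848), and for E2f6 they were Tspan13 (0.116), Aatf (0.14) and Dnaaf2 (0.143). No other member of the complex was among the 3 nearest genes of these 4. The libraries share group means and depth, so likeness is a description of these 10 libraries.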

How the data were processed

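RNA-seq of 10 mouse libraries was used. Per the study's methods, the authors prepared cDNA with Smart-seq2, whereas the labels name a NEBNext kit. Reads were aligned to mm10 with Hisat2 and counted on genes. The submitters' processing notes also name Bowtie2, RSEM, DESeq2 and R 3.4.2. The deposited values are TPM. Strand use in counting is not given in the sources used here.

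Multiplying TPM by GENCODE M21 exon length (35861 symbols matched to 1 gene) gave whole reads, within 0.05, for 95.1% to 95.4% of values above 0. Depth was 6779837 to 18572900 reads. These depths and any read counts cover counting error alone.

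In R 4.3.3, limma 3.58.1 fitted 5 group means to log2(TPM + 1) over all 10 libraries for 27259 genes (at least 0.1 TPM in at least 2 libraries), with variances following the mean. Within each comparison p-values were adjusted by Benjamini-Hochberg across the 27259 genes, and calls needed an adjusted p under 0.05 and a log2 change of at least 1. The study tested counts, whereas the main test here used the deposited TPM. The procedure was tested on simulated data.

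Alternatives were pseudocount 0.1, other filters, compared groups alone, quantile normalization, centring each library by its median over 9024 genes that reached 1 TPM throughout, replicate as a block, no fold minimum, and leaving out each library. Voom on recovered reads and leaving PGCs out of the fit were chosen after seeing the data. The members, lists and tests were chosen with earlier results of these data known. From each list, at most the 4 called genes with the largest change per comparison are named, plus Ddx4, Dazl, Mael, Sycp3, Stra8 and Slc25a31, the markers, and the 3 genes most like Pcgf6, L3mbtl2, Mga and E2f6. Some genes that this rule would name are not reported here. Names outside this rule are marked or complete a count of 5 or fewer. Python 3.11.15 with numpy 2.4.6 and pandas 2.3.3 made the tables, and matplotlib 3.10.9 drew the figures.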

Additional observations from a re-analysis of the deposited data

Results flagged for a closer look

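The difference between libraries labelled as PGCLCs and their stem cells was itself different for pESCs and ESCs, by the interaction term of limma, for 10 of the 74 tested genes of the subunit and companion lists, 7 with positive and 3 with negative values. Over all genes the shares were 15.5% and 3.53%. Among the subunits this was E2f6, at 1.43 on the log2 scale (adjusted p = 0.00925). Among the partners it was Hdac1 (1.30), which fell less from pESCs than from ESCs. Pcgf2 had the largest difference (-3.99), as it rose from ESCs and fell from pESCs, and Pcgf1 differed the other way (2.07). Mxd3 (2.17), Mxd4 (1.44) and Cbx5 (1.29) had positive values. Of the germline genes Tex101 rose more from pESCs (2.80), and Sycp3 (-2.25) and Taf7l (-1.02) rose less. After median centring Mxd4 (0.69), Cbx5 (0.55), Hdac1 (0.55) and E2f6 (0.68) were no longer called, and the other 6 were. On that scale the 74 genes held 3 positive and 18 negative calls, so the balance of directions turned, and after quantile normalization they held 4 and 10. Outside these lists, markers such as Pou5f1 (3.10), Amhr2 (1.74) and Hba-a1 (2.83) passed too, of which Pou5f1 rested on 4 and 0 reads in ESC-PGCLCs. The erythroid and gonadal marker sums were higher in pESC-PGCLCs than in ESC-PGCLCs, and their part in these values was not tested.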

How the results depend on the processing

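Of 900 alternative values of the subunits' fold changes, 817 kept their direction and their side of the threshold, 19 passed it newly, 14 no longer passed it and 50 changed sign. No value that changed sign had a size above 0.663 in the fit reported. Called subunits numbered 0 between pESC-PGCLCs and ESC-PGCLCs, and 1 with a pseudocount of 0.1 (E2f6), after median centring (Max) or with no fold minimum (E2f6). In pESC-PGCLCs against pESCs 3 became 5 with a pseudocount of 0.1 or no fold minimum, 1 after quantile normalization and 0 after median centring. In PGCs against ESC-PGCLCs 1 became 4 with no fold minimum, and for the interaction 1 became 2 after median centring. Leaving out 1 library gave 0 to 1 called subunits between the PGCLCs, 3 to 4 in ESC-PGCLCs against ESCs, 2 to 4 in pESC-PGCLCs against pESCs and 0 to 2 in PGCs against ESC-PGCLCs, and 0 to 0 between pESCs and ESCs and between PGCs and pESC-PGCLCs, with 1 for the interaction. Where a group is left with 1 library, that library is assumed to vary like the other groups.

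The sign changed after quantile normalization in pESCs against ESCs for Mga (0.088) and Max (0.064), in pESC-PGCLCs against ESC-PGCLCs for Pcgf6 (-0.24), in ESC-PGCLCs against ESCs for E2f6 (-0.042), and in pESC-PGCLCs against pESCs for Mga (-0.46) and Rybp (-0.42). In PGCs against ESC-PGCLCs it changed for Mga (-0.16), Max (-0.45), Rnf2 (-0.064) and Rybp (-0.091), against pESC-PGCLCs for L3mbtl2 (-0.0094) and Rybp (-0.21), and in the interaction for Mga (-0.51) and Rnf2 (-0.27).

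After median centring it changed in pESCs against ESCs for Mga (0.16), Max (0.23), Ring1 (0.29) and Rybp (0.16), and in pESC-PGCLCs against ESC-PGCLCs for Pcgf6 (-0.24), L3mbtl2 (-0.043) and Rybp (-0.038). In pESC-PGCLCs against pESCs it changed for Mga (-0.53), Max (-0.068) and Rybp (-0.61), in PGCs against ESC-PGCLCs for Pcgf6 (-0.061), Mga (-0.15), Max (-0.44), Rnf2 (-0.43) and Rybp (-0.23), and against pESC-PGCLCs for Rybp (-0.19). In the interaction it changed for Mga (-0.65), Ring1 (-0.24), Rnf2 (-0.32) and Rybp (-0.20).

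With voom on recovered reads it changed for Ring1 in pESCs against ESCs (0.028), for Mga (-0.063) and Rybp (-0.11) in pESC-PGCLCs against pESCs, for Rybp in PGCs against pESC-PGCLCs (-0.013), and for Mga in the interaction (-0.12). The sign also depended on 1 library in pESCs against ESCs for Mga (-0.36 to 0.0088, positive without pESC replicate 1), Max (-0.49 to 0.285, likewise) and Ring1 (-0.23 to 0.14, positive without ESC replicate 2), and in ESC-PGCLCs against ESCs for E2f6 (-0.12 to 0.28, at -0.067 without ESC-PGCLC replicate 2). The same held for Rnf2 between the PGCLCs (-0.14 to 0.046, positive without ESC-PGCLC replicate 2), for Rybp in pESC-PGCLCs against pESCs (-0.029 to 0.28, negative without pESC-PGCLC replicate 1), for L3mbtl2 in PGCs against pESC-PGCLCs (-0.021 to 0.55, negative without PGC replicate 1), for Rybp there (-0.15 to 0.16, negative without PGC replicate 1 or pESC-PGCLC replicate 2), and for Mga in the interaction (-0.093 to 0.28, negative without pESC replicate 1). The cause of these changes was not tested.

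Groups share replicate numbers, and the deviations of same-numbered libraries correlated by -0.051 to 0.24 over 10 pairs of groups. With 2 libraries per group, noise in single genes can hide a shared batch, so this check cannot settle whether the numbers pair the samples. With a replicate block the called subunits numbered 4 in ESC-PGCLCs against ESCs, 3 in pESC-PGCLCs against pESCs, 1 in PGCs against ESC-PGCLCs, 1 for the interaction and 0 in the other comparisons, as without it. In the companion lists the block ended the call of E2f4 in PGCs against pESC-PGCLCs and added that of Tuba3a in ESC-PGCLCs against ESCs. Over all genes the block moved the count between pESCs and ESCs from 45 higher and 168 lower to 23 higher and 55 lower. Ring1 rested on 4 to 54 reads per library, which limits its fold changes.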
